A study of Mus musculus with 8 samples.

Results

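ER folding, translocation and ERAD genes encode the machinery that brings a secretory protein into the endoplasmic reticulum (ER), folds it there and removes it when folding fails. Of 60 gene names chosen for these roles, 59 were found by symbol in a table of 11789 genes, and all 59 passed the filter on low values, a mean of at least 10 over all libraries, that left 10468 genes for testing. The name Ero1b was not found, and the older symbol of that gene, Ero1lb, is described separately. Whole pancreas was sequenced from 8 mice aged 6 weeks, 1 library per mouse, as strand-specific total RNA. Of these, 4 were wild type and 4 carried the genotype Daxxfl/flPdx1-CreTg, that is floxed alleles of the histone chaperone gene Daxx and a Cre transgene under the Pdx1 promoter, called Daxx deleted here. This promoter is active in early pancreatic cells that form acini, ducts and islets, so vessels, stroma and immune cells keep their Daxx alleles. No group with the transgene alone or the floxed alleles alone was analysed here, so what follows from losing Daxx, from carrying Cre and from the floxed alleles cannot be told apart. The series text gives 2 females and 2 males per genotype, and the labels do not say which library is from which sex.

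The acinar cell of the pancreas makes more secreted protein than almost any other cell, and its cytoplasm is packed with rough ER. A signal recognition particle delivers the ribosome to its receptor and to the Sec61 channel, signal peptidase removes the signal sequence, oligosaccharyltransferase adds sugar chains, and chaperones and disulfide isomerases fold the product. Proteins that fail to fold are pulled back to the cytosol and degraded by the proteasome, a route called ER-associated degradation (ERAD). When unfolded protein builds up, the sensors encoded by Ern1, Atf6 and Eif2ak3 start the unfolded protein response, which raises transcription of many chaperone and ERAD genes through short promoter elements.

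Those elements are shown first, because they set apart a subset of the genes by sequence alone. RefSeq promoters (GRCm38.p6, 250 bases before to 50 after the start of transcription) matched 49 of the 59 genes by symbol. Both strands were searched for the ER stress element, which is CCAAT, any 9 bases and CCACG. It was found in the promoters of 9 of the 49 genes, or 18.4%, against 39 of all 32851 promoters of the same length, or 0.119%. The 9 genes were Hspa5, Hsp90b1, Calr, Canx, Pdia6, Dnajc3, Creld2, Derl3 and Syvn1, with 2 matches in Hsp90b1. The second form of the element, which is ATTGG, any 1 base and CCACG, was found in 2 of the 49, Herpud1 and Dnajb11, against 0.0365% of all promoters. The unfolded protein response element, TGACGTGG, was found in 1 of the 49, Vcp, against 0.676% of all promoters. No 2 of these matches overlapped. The counts among the 49 are of genes and the background counts are of promoters. The genes were chosen for roles that include known targets of the unfolded protein response, so a raised share was partly built into the choice. A match is a description of the letters and does not show that a factor binds there. The ER stress elements of 4 genes and the second form in Herpud1 are given 5′ to 3′ on the strand of the gene, with the fixed letters of the motif in capitals and 5 bases on each side. In Creld2 the motif lies on the opposite strand, so its letters appear as the reverse complement.
Hspa5: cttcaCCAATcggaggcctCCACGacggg
Dnajc3: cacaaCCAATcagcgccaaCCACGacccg
Syvn1: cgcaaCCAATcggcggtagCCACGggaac
Creld2: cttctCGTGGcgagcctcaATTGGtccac
Herpud1: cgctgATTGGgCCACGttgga
The printed stretches lie at chr2:34772020-34772048 for Hspa5, chr14:118937822-118937850 for Dnajc3, chr19:6046527-6046555 for Syvn1, chr15:88819515-88819543 for Creld2 and chr8:94386372-94386392 for Herpud1, each on the plus strand. The motif began 65 bases before the RefSeq start in Hspa5, 105 in Dnajc3, 44 in Syvn1, 126 in Creld2 and 52 in Herpud1. GENCODE M21 places Hspa5 (ENSMUSG00000026864) at chr2:34771970-34777547, so its element lies inside the annotated gene there. It places Creld2 (ENSMUSG00000023272) at chr15:88819646-88826683, downstream of its element.

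The libraries held 7705789 to 10517508 reads over all listed genes, of which the 59 genes took 0.865% to 1.23%. Values are the deposited normalized read counts, that is reads divided by a size factor per library, with SD over n = 4 libraries per genotype. Where 4 values are given they are in the order of replicates 1 to 4, and where 2 means are given the wild-type mean comes first. Daxx stood at 39.7, 58.7, 46.7 and 45.2 in the wild-type animals and at 26.8, 23.3, 29.2 and 32.5 in the Daxx-deleted animals. All Daxx-deleted libraries were below all wild-type libraries in Daxx, by a log2 fold change of -0.74 ± 0.20 (SE; limma adjusted p = 0.9997, exact permutation p = 0.0286, the smallest it can give). Acinar markers had a summed level of 4286405 to 5025911 in wild type and 3482761 to 5062510 in Daxx-deleted libraries, over 11 of 12 listed genes. Sums of islet markers ran from 2195 to 7977 and from 1745 to 7655 over 9 genes, and sums of stromal markers from 3089 to 4855 and from 3332 to 5497 over 6 genes. Of the 11 acinar markers 10 had a log2 fold change below 0 and 1 above, with a median of -0.11. Of the 9 islet markers 8 lay below 0 and 1 above, with a median of -0.39. Of the 6 stromal markers 2 lay below 0 and 4 above, with a median of 0.05. Genes of a list share libraries and are not replicates. The lists of ductal, macrophage, endothelial and fat cell markers overlapped between genotypes as well. Of 9 plasma and B cell markers 1, Jchain, was found by symbol, at 0 to 19.6 in wild type and 2.10 to 69.97 in Daxx-deleted libraries.

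No gene of the ER machinery passed the test of genotype, and the estimates were small, from a log2 fold change of -0.21 for Derl2 to 0.30 for Creld2. With limma on log2(normalized count + 1), 0 of the 59 genes passed an adjusted p of 0.05 (Benjamini-Hochberg over all tested genes), and the background share of genes called was 0%. The smallest adjusted p among the 59 was 0.9997. At an unadjusted p under 0.05 there were 0 of the 59, against 302 of 10468 tested genes, or 2.88%. On the recovered reads edgeR's quasi-likelihood test called 0 of the 59, against 0% of all genes, with 0 at an unadjusted p under 0.05, against 2.86%. DESeq2 also called 0 of the 59, against 0.00955% of all genes, with 0 at an unadjusted p under 0.05, against 2.09%. In none of the 59 genes were all libraries of one genotype above all libraries of the other, against 1.87% of tested genes, of which 0.831% higher and 1.04% lower without Daxx. Of the 59 genes, 22 had a log2 fold change above 0 and 37 below, or 62.7% below, against 51.9% of all tested genes. Among tested genes with a mean of at least 100 the share below 0 was 54.7%. Their median log2 fold change was -0.03, against -0.01 over all tested genes.

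The data also bound how large a difference between genotypes in whole pancreas could have been. Daxx RNA itself stood at 58.8% of the wild-type mean in the Daxx-deleted libraries. The 95% intervals of the log2 fold change lay within a 2-fold change in either direction for 59 of 59 genes and within a 1.5-fold change for 51. Over all tested genes, 9247 of 10468 intervals lay within 2-fold and 5875 within 1.5-fold. Of the 4103 tested genes with a mean of at least 100, 4056 lay within 2-fold and 3751 within 1.5-fold. The share within 1.5-fold was thus larger in those genes than in the 59. On the log2 scale the median reach of an interval from its estimate was 0.27 for the 59 genes. It was 0.30 for the 4103 tested genes whose mean reached 100. These are intervals for single genes, not adjusted for their number. In whole tissue, fewer cells of a type and less RNA per cell cannot be told apart.

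**Figure D1:**
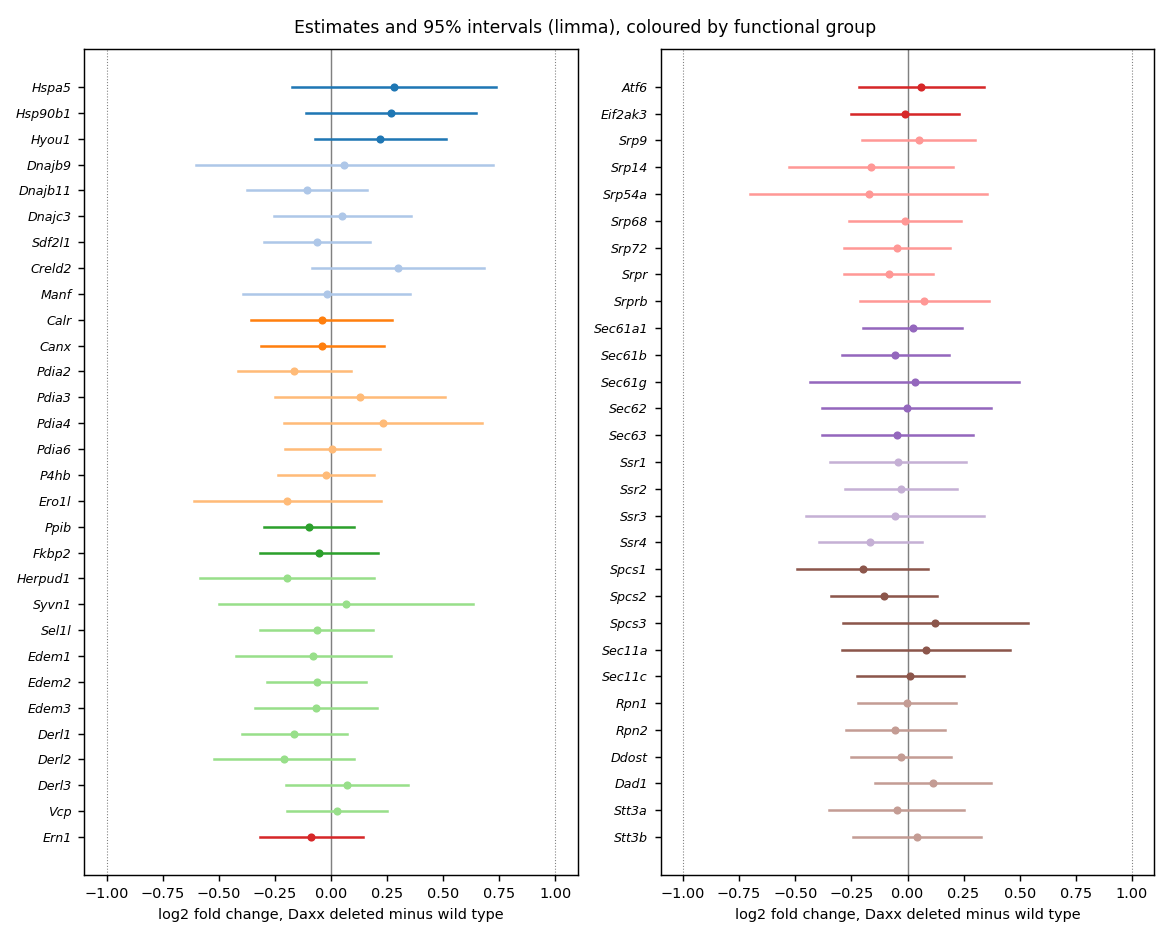
Log2 fold change of each of the 59 genes (points) with its 95% interval from limma (lines), Daxx deleted minus wild type on the horizontal axis, coloured by functional group. Every interval includes 0 and lies between the dotted lines at a 2-fold change, and the widest belong to Dnajb9, Syvn1 and Srp54a.

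BiP, encoded by Hspa5, is the Hsp70 chaperone of the ER lumen and the usual marker of ER load. Hspa5 stood at 5373, 3901, 8165 and 7390 normalized counts in the wild-type animals and at 7493, 6409, 5573 and 10274 in the Daxx-deleted animals. The highest library was Daxx deleted and the lowest wild type, and the remaining libraries were interleaved. The wild-type mean was 6207 ± 1936 and the Daxx-deleted mean 7437 ± 2048. The log2 fold change was 0.28 ± 0.21 (SE), and its 95% interval ran from -0.17 to 0.73 (exact two-sided permutation p = 0.400). Without wild-type replicate 2 the log2 fold change was 0.08, and without Daxx-deleted replicate 4 it was 0.11. It was larger, at 0.43, without wild-type replicate 3, and 0.41 without Daxx-deleted replicate 3. Hsp90b1, the ER form of Hsp90, gave 2541, 1699, 2601 and 3516 in wild type and 3185, 2887, 2474 and 3659 in Daxx-deleted libraries. Its log2 fold change of 0.27 ± 0.18 (SE) fell to 0.08 without wild-type replicate 2 and to 0.18 without Daxx-deleted replicate 4. It rose to 0.43 without wild-type replicate 4. Hyou1, a large Hsp70 relative that exchanges nucleotide on BiP, had 4800 ± 637 and 5628 ± 1125.

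Among the cofactors of BiP, 3 genes lay above 0 and 3 below. Creld2, a small ER protein induced by stress, had the largest positive estimate of all 59 genes. It stood at 703, 596, 979 and 984 in the wild-type animals and at 1052, 809, 823 and 1325 in the Daxx-deleted animals. The groups overlapped, and the log2 fold change was 0.30 ± 0.18 (SE), its 95% interval running from -0.08 to 0.68 (limma adjusted p = 0.9997). Without wild-type replicate 2 it was 0.16, and without Daxx-deleted replicate 4 also 0.16. Without wild-type replicate 3 or without wild-type replicate 4 it was 0.40. Dnajb9, a J-domain cochaperone of BiP that also restrains the sensor encoded by Ern1, varied most among animals. Its values were 193, 87.4, 96.4 and 120 in wild type and 233, 152, 82.3 and 78.7 in Daxx-deleted libraries. Daxx-deleted replicate 4, the highest library for Hspa5 and Creld2, was the lowest for Dnajb9, and no order by genotype appeared. Its log2 fold change was 0.06 ± 0.31 (SE), below 0 when wild-type replicate 2 or 3 or Daxx-deleted replicate 1 or 2 was left out. The remaining cofactors had log2 fold changes of -0.11 for Dnajb11, 0.05 for Dnajc3, -0.06 for Sdf2l1 and -0.02 for Manf. Sdf2l1, a partner of the J-domain cochaperones, was the highest of them per exon length, at 783, 856, 884 and 849 in wild type and 733, 728, 828 and 953 without Daxx. Manf overlaps Dcaf1 and Rbm15b in the annotation, so its reads are uncertain.

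The lectin chaperones hold glycoproteins in the folding cycle. Calr, the soluble form, had a mean of 2297 ± 396 against 2237 ± 441, and Canx, the membrane form, had 1506 ± 268 and 1453 ± 131. Calr stood at 2120, 1838, 2503 and 2727 in wild type and at 2087, 2253, 1779 and 2828 without Daxx. The log2 fold changes of Calr and Canx were both -0.04. In each gene the spread within a genotype was several times the difference between the means.

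Disulfide isomerases form and shuffle the disulfide bonds in which digestive zymogens are rich, and P4hb, the classical protein disulfide isomerase, was the most abundant of all 59 genes. P4hb stood at 16597, 15690, 15790 and 17290 normalized counts in the wild-type animals and at 15735, 15571, 15747 and 17397 in the Daxx-deleted animals. Its animals all lay between 15571 and 17397. With a log2 fold change of -0.02 ± 0.10 (SE), its 95% interval ran from -0.23 to 0.19. Pdia2, an isomerase known for its expression in pancreas, had 215 ± 13.1 and 192 ± 14.6. Its genotypes overlapped only through Daxx-deleted replicate 4. Pdia4 had 814 ± 218 and 952 ± 258, Pdia3 had 733 ± 187 and 783 ± 116, and Pdia6 had 1911 ± 142 and 1918 ± 125. Ero1 oxidases recharge the isomerases. Ero1lb, the form known from pancreas, stood at 3505, 3065, 3089 and 4244 in wild type and at 3417, 3350, 2702 and 3667 in Daxx-deleted libraries. Ero1l, the widely expressed form, had 101 ± 24.2 and 87.3 ± 16.9. Of the prolyl isomerases, which turn proline bonds during folding, Ppib had 3035 ± 66.0 and 2840 ± 201 and Fkbp2 had 164 ± 13.0 and 158 ± 9.62. In Ppib the wild-type libraries lay at 3067, 3061, 2936 and 3074 and those without Daxx at 2654, 2926, 2696 and 3082, where replicate 4 was the highest of all.

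ERAD genes had 3 estimates above 0 and 7 below, with a median log2 fold change of -0.07. Sel1l, the scaffold of the membrane complex that exports misfolded proteins, was the most abundant. It stood at 13209, 11900, 15195 and 14042 in the wild-type animals and at 13939, 11693, 11744 and 14687 in the Daxx-deleted animals, with a log2 fold change of -0.06 ± 0.12 (SE). Syvn1, the ubiquitin ligase that works in the same complex, did not share this evenness. It stood at 647, 648, 968 and 534 in wild type and at 1362, 418, 709 and 647 in Daxx-deleted libraries, so that the highest and the lowest library were both Daxx deleted. Its log2 fold change of 0.07 ± 0.27 (SE) became -0.24 without Daxx-deleted replicate 1 and -0.05 without wild-type replicate 4. Herpud1, a membrane adaptor of the complex, stood at 2685, 2465, 4698 and 2668 in wild type and at 2992, 2582, 3050 and 2046 in Daxx-deleted libraries. Wild-type replicate 3 lay far above the rest, and without it the log2 fold change went from -0.20 ± 0.18 (SE) to 0.02. 

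The derlins are membrane proteins of the export channel. Derl2 had the most negative estimate of all 59 genes, at 166, 127, 123 and 135 in wild type and 123, 134, 101 and 115 in Daxx-deleted libraries. The groups overlapped, with a log2 fold change of -0.21 ± 0.15 (SE), a 95% interval of -0.52 to 0.10 and an exact permutation p of 0.143. Derl1 had 439 ± 17.1 and 393 ± 39.6, and Derl3, which is typical of secretory cells, had 579 ± 34.8 and 614 ± 110. The Edem genes encode mannosidase-like proteins that mark glycoproteins for removal. Edem1 had 3651 ± 551 and 3515 ± 968, Edem2 had 2345 ± 266 and 2235 ± 139, and Edem3 had 1333 ± 149 and 1278 ± 195. Vcp, the ATPase that extracts ERAD substrates, had 1143 ± 33.7 and 1170 ± 138. Derl2 and Syvn1 share 231 and 91 bases with Mis12 and Mrpl49 on the opposite strand, as Pdia3 shares 18 with Catsper2 and Spcs1 273 with Glt8d1, and the strand setting of the read counting is not stated.

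The 3 stress sensors had genotype means close to each other. Eif2ak3, which encodes the kinase PERK, stood at 1652, 1462, 1588 and 1296 in wild type and at 1420, 1303, 1571 and 1659 without Daxx, with means of 1500 ± 157 and 1488 ± 158. Atf6, a membrane-bound transcription factor, had 685 ± 103 and 712 ± 92.8, and Ern1, which encodes IRE1, had 641 ± 62.7 and 602 ± 39.4. Their log2 fold changes were -0.01, 0.06 and -0.09, each with an interval within 1.5-fold. RNA levels of the sensors do not show whether they were active.

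**Figure D2:**
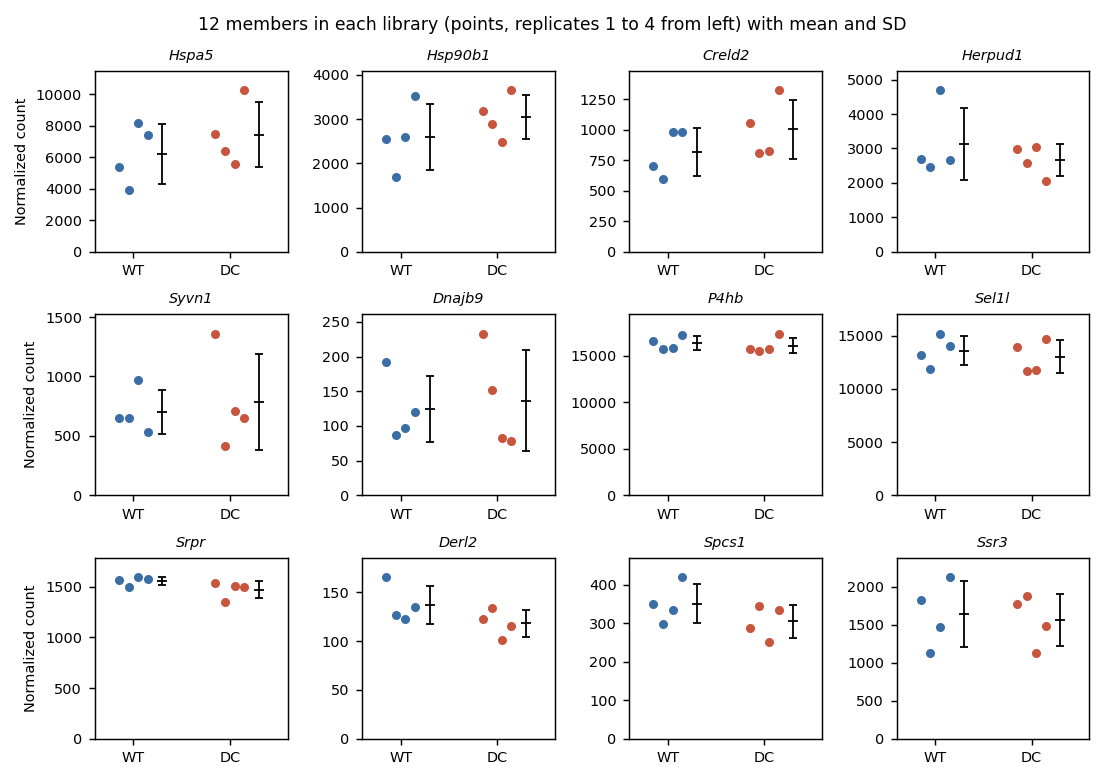
Normalized read counts of 12 genes in each of the 8 libraries (points, replicates 1 to 4 from left to right within a genotype; WT wild type, DC Daxx deleted) with the mean and SD of each genotype, on axes that start at 0. P4hb and Srpr were nearly level across animals, while Syvn1 spanned 3.26-fold and Dnajb9 2.96-fold, and the genotypes overlapped in each of the 12 genes.

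The signal recognition particle and its receptor bring the ribosome to the membrane, and their genes had 2 of 7 estimates above 0, with a median log2 fold change of -0.05. Srpr, the receptor subunit that docks the particle, stood at 1563, 1496, 1595 and 1573 in the wild-type animals and at 1538, 1346, 1509 and 1493 in the Daxx-deleted animals. The genotypes overlapped through wild-type replicate 2 alone. Without it Srpr was the 1 gene of the 59 without overlap, against 5.34% of all tested genes in the same 7 libraries. The difference of the means was small, with a log2 fold change of -0.08 ± 0.09 (SE). On the opposite strand, Fam118b shares 31009 bases with the annotated span of Srpr, Foxred1 6850 and Tirap 117. Srp14 had 109 ± 22.5 and 96.1 ± 12.3, and Srp68, Srp72, Srp9 and Srprb had log2 fold changes between -0.05 and 0.07. Srp54a, the GTPase subunit, had only 27 to 51 reads per library, and Srp54c is a near-identical copy, so counts of either are uncertain. Srp54a had 42.5 ± 7.33 and 39.0 ± 13.7, and Srp54c had 39.3 ± 7.83 and 44.1 ± 18.2.

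The translocon had 2 of 5 estimates above 0 and a median log2 fold change of -0.0044. Sec61a1, the channel itself, stood at 2498, 2653, 2873 and 2724 in wild type and at 2548, 2533, 2692 and 3187 in Daxx-deleted libraries, a log2 fold change of 0.02 ± 0.10 (SE). Its small partners Sec61b and Sec61g had -0.05 and 0.03, and Sec62 and Sec63, which assist import, had -0.0044 and -0.04. The translocon-associated (TRAP) complex, which helps some signal sequences to insert, had 4 of 4 estimates below 0 with a median of -0.05, including -0.04 for Ssr1 and -0.03 for Ssr2. Its subunit Ssr4 stood at 1410, 1350, 1383 and 1308 in wild type and at 1069, 1188, 1184 and 1448 in Daxx-deleted libraries. Daxx-deleted replicate 4 was the highest of all 8 libraries and the other 3 of that genotype the lowest, and the log2 fold change was -0.16 ± 0.11 (SE; exact permutation p = 0.143). Without Daxx-deleted replicate 4 the genotypes did not overlap in Ssr4, Pdia2, Ppib and Derl1, that is 4 of 59 genes, against 4.17% of all tested genes in the same 7 libraries.

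Signal peptidase had 3 of 5 estimates above 0. Spcs1, an accessory subunit, stood at 350, 299, 335 and 421 in wild type and at 289, 347, 252 and 335 in Daxx-deleted libraries, with overlapping genotypes and a log2 fold change of -0.20 ± 0.14 (SE). Spcs3, which the catalytic subunits need, stood at 1228, 694, 863 and 1299 in wild type and at 1324, 1243, 789 and 1038 in Daxx-deleted libraries. Spcs2, a further accessory subunit, had a log2 fold change of -0.11. Of the catalytic subunits, Sec11c had 670 ± 79.1 and 673 ± 42.9 and Sec11a had 99.8 ± 22.7 and 104 ± 9.70. Oligosaccharyltransferase had 2 of 6 estimates above 0. Ddost stood at 1008, 899, 983 and 1025 in wild type and at 849, 974, 945 and 1078 in Daxx-deleted libraries, and the log2 fold changes of the 6 subunits ran from -0.05 for Rpn2 to 0.12 for Dad1. Rpn1, a subunit that binds substrates, had 1134 ± 41.4 and 1138 ± 119.

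Levels between genes were compared as mean normalized counts per kilobase of merged exons (GENCODE M21, GRCm38). P4hb had 5712 ± 263 per kilobase against 5632 ± 301. Next came Sel1l with 1588 ± 162 and 1521 ± 179, Hspa5 with 1468 ± 458 and 1759 ± 484, and Herpud1 with 1341 ± 451 and 1143 ± 199, and these 3 did not differ beyond their spread. Among the stress sensors Eif2ak3 was highest, with 249 ± 26.1 and 247 ± 26.2, above Ern1 with 78.4 ± 7.67 and 73.7 ± 4.82 and Atf6 with 74.2 ± 11.2 and 77.2 ± 10.1, which did not differ beyond their spread. Of the 2 catalytic subunits of oligosaccharyltransferase, Stt3b had 162 ± 25.4 and 167 ± 23.9 and Stt3a had 60.8 ± 10.7 and 58.5 ± 7.80. Srp54a was lowest of all, at 7.98 ± 1.38 and 7.32 ± 2.58. The highest gene was the same with the shorter basic set of transcripts in 10 of the 12 functional groups. For signal peptidase it became Sec11c and for oligosaccharyltransferase Rpn2, so orders within those complexes depend on the annotation. The order of genes after P4hb depends on it as well. Over both genotypes Ppib had 889 per kilobase with all transcripts and 3293 with basic transcripts. With basic transcripts Ppib thus stood above Sel1l with 2105 and Hspa5 with 1817.

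**Figure D3:**
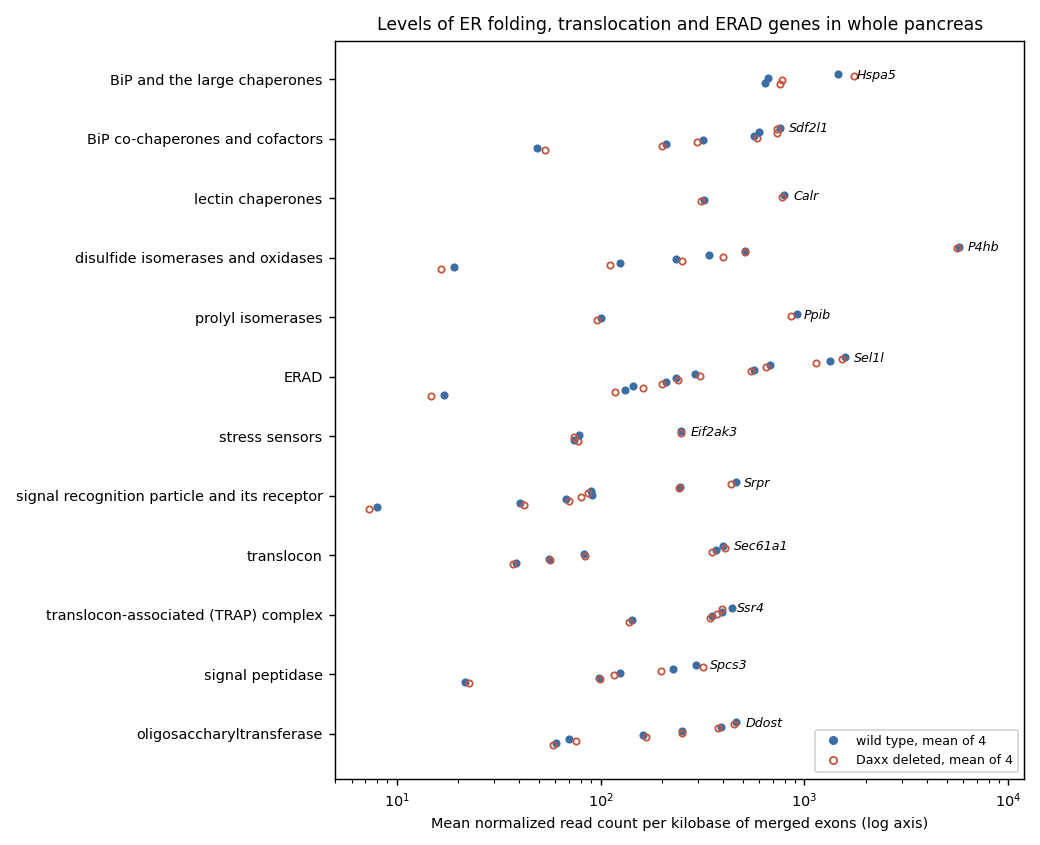
Mean normalized read count per kilobase of merged exons of each of the 59 genes on a log axis, by functional group, with filled circles for wild type and open circles for Daxx deleted (means of 4 libraries). P4hb stands above every other gene, at 5712 in wild type, and the genotype means of each gene lie close together.

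The genes differed widely in how much they varied among animals of 1 genotype. The SD of log2 values within genotype was 0.64 for Dnajb9, 0.56 for Syvn1 and 0.43 for Hspa5, the 3 largest, and 0.07 for both Srpr and P4hb. Its median over the 59 genes was 0.19, the same as over all tested genes with a mean of at least 100. The 11 genes with an ER stress element of either form had a median SD of 0.27, and the 38 genes with a promoter in the table and neither element had 0.16. Their median log2 fold changes between genotypes were 0.05 and -0.05. These splits were made on promoter letters and are given without a test.

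Libraries of each genotype stood apart in this machinery. Under the deposited scaling, Daxx-deleted replicate 4 was the highest library for 24 of the 59 genes, or 40.7%, against 14.5% of all tested genes. Wild-type replicate 2 and Daxx-deleted replicate 3 were the lowest for 14 genes each, or 23.7%, against 15.2% and 15.4% of all tested genes. Under TMM scaling, another set of size factors, Daxx-deleted replicate 4 was highest for 22 of the 59, against 13.9% of all tested genes. Wild-type replicate 2 and Daxx-deleted replicate 3 were lowest for 15 and 16 there, against 15.3% and 15.5%. Under equal library totals Daxx-deleted replicate 4 was highest for 4 of the 59 genes, against 3.60% of all tested genes, so that count depends on the scaling. Daxx-deleted replicate 2 was then highest for 26, against 31.8% of all tested genes. Wild-type replicate 2 was then lowest for 28, against 24.9% of all tested genes. As shares of the 59 genes, each of these counts was above the share of all tested genes. Daxx-deleted replicate 4 and wild-type replicate 2 had the highest summed acinar markers of the 8 libraries, at 5062510 and 5025911, and so lay close together in that measure. Wild-type replicate 2 also had the fewest reads, 7705789, with nearly as few, 7721994, in Daxx-deleted replicate 1. The part of acinar content and depth in these counts was not tested.

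Ratios within a library do not depend on scaling. The ratio of Hspa5 to P4hb was 0.324, 0.249, 0.517 and 0.427 in the wild-type animals and 0.476, 0.412, 0.354 and 0.591 in the Daxx-deleted animals. Wild-type replicate 2 was lowest and Daxx-deleted replicate 4 highest, as with the counts of Hspa5 alone. The same 2 libraries were the lowest and the highest for 8 of the 59 genes, or 13.6%, against 2.14% of all tested genes. By the deposited scaling these were Hspa5, Hsp90b1, Dnajc3, Creld2, Pdia4, Pdia6, Atf6 and Sec61g. Under equal library totals Daxx-deleted replicate 4 was highest for 4 genes in all, so the count of 8 depends on the scaling. Again by the deposited scaling, the 2 lowest libraries were wild-type replicate 2 and Daxx-deleted replicate 3 in 17 of the 59 genes. That was 28.8%, against 9.94% of all tested genes. The 17 genes were Hsp90b1, Dnajc3, Manf, Calr, Canx, Pdia3, Pdia4, Edem3, Srprb, Sec61g, Sec62, Sec63, Ssr1, Ssr3, Spcs3, Stt3a and Stt3b. Ssr3, a TRAP subunit, stood at 1823, 1124, 1474 and 2124 in wild type and at 1772, 1873, 1125 and 1476 in Daxx-deleted libraries. Its partner Ssr4 did not follow it, and the ratio of Ssr3 to Ssr4 was 1.29, 0.833, 1.07 and 1.62 in wild type and 1.66, 1.58, 0.950 and 1.02 in Daxx-deleted libraries. Ssr3 and Ssr4 therefore were not in a fixed ratio of read counts across the 8 libraries. These libraries and patterns were picked after their values were seen.

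**Figure D4:**
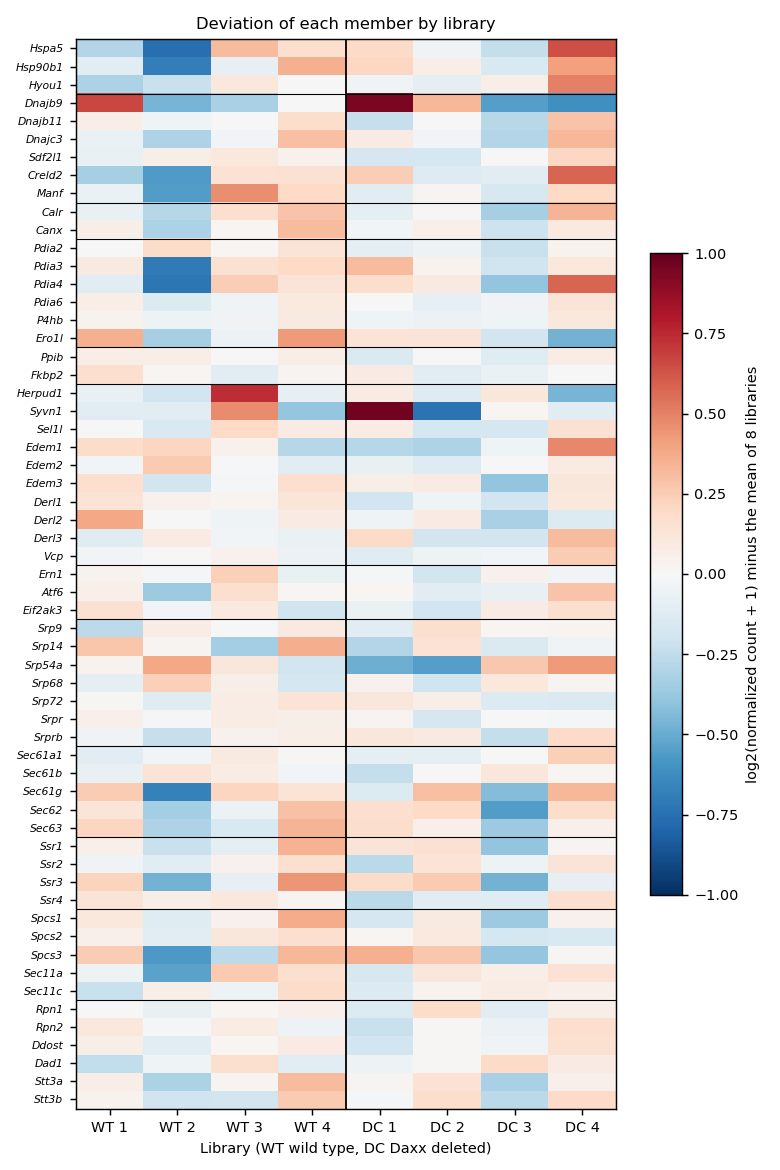
Deviation of log2(normalized count + 1) from the mean of the 8 libraries for each of the 59 genes (rows, grouped by function) in each library (columns; WT wild type, DC Daxx deleted), red for higher and blue for lower. Hspa5, Pdia4 and Creld2 are lowest in WT 2 and highest in DC 4, while Dnajb9 is highest in DC 1 and WT 1.

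Other genes of the pathway did not pass either. Of 94 listed names, 85 were tested, and 0 passed with limma, against a background of 0%, with 0 at an unadjusted p under 0.05. Of these 38 lay above 0 and 47 below, with a median log2 fold change of -0.01. Among 30 further folding genes, Erp29, a chaperone of secretory proteins, had a mean of 362 ± 53.3 against 403 ± 35.7, and Dnajb14, a J-domain protein of the ER membrane, had 147 ± 21.9 and 125 ± 11.7. Among 19 further ERAD genes, Ufd1, a cofactor of Vcp, had 80.6 ± 11.4 and 90.3 ± 9.02, and Faf2, another adaptor of Vcp, had 193 ± 24.6 and 164 ± 14.7. Among 24 further targeting genes, Wrb, a receptor subunit for tail-anchored proteins, had 36.7 ± 3.20 and 44.9 ± 11.4, and Emc3, of the ER membrane complex, had 94.5 ± 14.2 and 84.3 ± 16.4.

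Transcription factors and targets of the stress response had 12 of 14 members tested, 5 above 0 and 7 below. Xbp1, whose RNA is spliced by IRE1, stood at 2357, 1976, 2521 and 2461 in wild type and at 2010, 2080, 2000 and 2523 in Daxx-deleted libraries, a log2 fold change of -0.11 ± 0.11 (SE). Counts per gene do not show the spliced form. Atf4, the factor translated when PERK is active, had 707 ± 93.4 and 667 ± 49.0. Chac1, a glutathione-degrading enzyme downstream of Atf4, stood at 178, 256, 339 and 322 in wild type and at 274, 133, 233 and 170 in Daxx-deleted libraries, with overlapping genotypes and a log2 fold change of -0.44 ± 0.22 (SE). Atf6b, a relative of Atf6, had 110 ± 25.0 and 127 ± 15.6. Ddit3, which encodes the death-linked factor CHOP, stayed under the filter, at 4.87 to 6.52 in wild type and 5.83 to 11.4 in Daxx-deleted libraries.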

How the data were processed

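Total RNA of whole pancreas was sequenced for 4 wild-type and 4 Daxx-deleted mice, 1 library each. Replicates were numbered in accession order, which pairs nothing across genotypes. STAR 2.6.0b, DESeq2 and the build GRCm38 are named in the submitters' processing notes, which name no read counter. The deposited values are a signal, as the values show read counts that the authors divided by 1 size factor per library. Dividing by the smallest nonzero value gave whole reads for 100% of values within 0.001. The labels name no day or batch.

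Genes with a mean of at least 10 entered limma 3.58.1 (R 4.3.3, trend option, log2(value + 1), genotype as the only term), with two-sided p-values adjusted over 10468 genes. Fold changes on this scale understate changes of low genes. Single genes had an exact permutation test over 70 relabellings, whose smallest p is 0.0286. edgeR 4.0.16 and DESeq2 1.42.0 ran on the recovered reads. Alternatives were pseudocounts of 0.5 and 8, TMM scaling, equal library totals, no filter or a minimum mean of 50, robust moderation, a Y-linked covariate and each library left out. The fit was checked on simulated counts. Coordinates and exon lengths are from GENCODE M21, matched for 11781 gene IDs without version.

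The members, the functional groups and the other lists were chosen with earlier results of these data known. Values in every library are given by a rule: Hspa5, called genes, genes whose genotypes do not overlap, the 3 largest estimates in each direction, the 3 largest SDs within genotype and the highest gene per length of each group. Of each pathway list the rule takes the gene of smallest p in each direction, with Xbp1, Atf4 and Ddit3. Values of Ero1lb, Ssr3 and Srp54c were chosen after they were seen.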

Additional observations from a re-analysis of the deposited data

Results flagged for a closer look

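In 9 of 142 groups of 4 libraries, Dixon's test set 1 library apart from the remaining 3, and chance would do so in about 7.1. Wild-type replicate 2 was low in Pdia3, at 455 against 792 to 855, and in Sec61g, at 83.5 against 148 to 160, and high in Erp29, at 441 against 324 to 342. Wild-type replicate 3 was high in Herpud1, at 4698 against 2465 to 2685, and low in Ppib, at 2936 against 3061 to 3074. Daxx-deleted replicate 3 was low in Edem3, at 987 against 1349 to 1405, and in Sec62, at 242 against 401 to 409. Daxx-deleted replicate 4 was high in P4hb, at 17397 against 15571 to 15747, and in Xbp1, at 2523 against 2000 to 2080.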

How the results depend on the processing

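No member was called under any of the 18 alternatives. Over all genes the count of calls rose from 0 to 1, Bglap3, which is not one of the 59, with equal library totals, robust moderation, the Y-linked covariate and DESeq2, and was 0 to 1 with each library left out. Equal library totals moved the median member's log2 fold change from -0.03 to 0.092 and that of all tested genes to 0.11, and gave 1 gene without overlap, Hyou1, against 3.26% of all tested genes. With each library left out, 0 to 4 members did not overlap, against 3.72% to 5.34% of all tested genes, and the median ran from -0.07 to 0.02. Directions changed for 3 genes in those fits, with ranges of -0.25 to 0.29 for Dnajb9, -0.29 to 0.017 for Herpud1 and -0.24 to 0.32 for Syvn1. In all, 297 of 304 values of 17 named genes kept their direction. Exon lengths from basic transcripts were an alternative chosen after seeing the data. No paired analysis was possible because replicates were numbered in accession order only, and nothing in the labels ties a number to the same one in the other genotype.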
